A study of Pan troglodytes with 217 samples.

Results

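The genes described here are 9 components of the tight junction, namely the claudins CLDN3, CLDN4, CLDN6, CLDN7 and CLDN10, the scaffold TJP1 (ZO-1), occludin (OCLN), the junctional adhesion molecule F11R (JAM-A) and cingulin (CGN). They were chosen by name from the 33729 Ensembl chimpanzee gene identifiers of the count table, and all 9 matched at least 1 identifier. A total of 6 of the 9 reached 10 CPM (reads scaled to a common library total) in some cell class. Their levels were described in single cells of day 4 blastoids, blastocyst-like structures formed from chimpanzee naive induced pluripotent stem cells. Per the labels, these naive cells were cultured in AE6, N2B27 medium with inhibitors that include EPZ-6438, which blocks the Polycomb repressive complex PRC2. Blastoids formed in N2B27 with MEK, TGF-beta receptor and ROCK inhibitors and lysophosphatidic acid, which were withdrawn in steps. Most mural trophectoderm was cut away and dissociated on its own, and inner cell masses with polar trophectoderm separately, so the share of trophectoderm-like cells does not give their share in a blastoid. Neither the labels nor the methods tie a cell to a blastoid, line, plate, or mural or inner origin. All cells therefore form 1 sample and no test was made. Differences below are differences between pools of cells of that sample, and the spread between blastoids is not known.

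Tight junctions seal the space between epithelial cells. Claudins form the paracellular strands and differ in whether they close the path or let ions pass. Occludin and its relatives of the MARVEL family lie in the same strands, junctional adhesion molecules lie beside them, and ZO proteins and cingulin tie the strands to the actin skeleton. In the blastocyst the trophectoderm is the sealed outer epithelium that pumps fluid into the cavity. The hypoblast forms an epithelium facing the cavity, and the epiblast polarises later. Full-length cDNA of each cell was sequenced without molecular identifiers, so PCR copies are counted more than once. Intervals of levels below cover read counting error only. Intervals of shares of cells treat the cells as independent draws, and neither kind covers the spread between blastoids.

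All but 24 of the cells had at least 8000 detected genes, and those kept had 1679888 to 25630392 reads each. They formed 4 clusters, which were named from marker lists. The 50 epiblast-like cells had 8 of 9 matched epiblast markers at 10 CPM or more, the 32 hypoblast-like cells 9 of 12 hypoblast markers, and the trophectoderm-like cells 13 of 14 trophectoderm markers. The same lists named the clusters, so these counts are no check of the names. Epiblast-like cells also had 2 hypoblast and 7 trophectoderm markers at this level, and hypoblast-like cells 5 epiblast and 5 trophectoderm markers. Trophectoderm-like cells had 2 epiblast markers and 1 hypoblast marker. The trophectoderm-like cells fell into a larger cluster of 60 cells and a smaller one of 51 cells. CCR7, a chemokine receptor gene of the marker list, was at 5.71 CPM in the larger cluster (CCR7-low) and 315 CPM in the smaller one (CCR7-high). Median mitochondrially encoded shares of reads were close in the 3 classes, between 2.13% and 2.23%. The 2 trophectoderm-like clusters differed more: CCR7-low cells had a median share of 2.46% and 10738.5 detected genes, and CCR7-high cells 1.84% and 11528. Within trophectoderm-like cells the rank correlation with the number of detected genes was -0.39 for OCLN, -0.22 for CGN and -0.23 for CXADR, and the part of these measures in the differences between the clusters was not tested. Some kept cells had mixed markers, that is, at least 3 markers of each of 2 lineages at 10 CPM or more. They made up 27 of the 32 hypoblast-like cells, 22 of the 50 epiblast-like cells and 24 of the trophectoderm-like cells. Classes were made from all genes, these included. Clustering without the 9 genes and the junction lists used below left every kept cell in its class and 99 trophectoderm-like cells in their cluster. The division of the trophectoderm-like cells also moved with the random seed: 4 of 5 other seeds placed 99 of them as here, and 1 placed all of them as here.

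CLDN3 and CLDN4 are sealing claudins that are well known in epithelia, and both were at or near 0 reads. CLDN3 had no read in any cell, kept or left out, for either of its identifiers ENSPTRG00000028539 and ENSPTRG00000050183. In the trophectoderm-like cells this allows a share of cells with a read of up to 2.703%, and up to 9.38% in the 32 hypoblast-like and 6% in the 50 epiblast-like cells. CLDN4 had 3 reads in 3 cells for ENSPTRG00000042699 and 24 reads in 22 cells for ENSPTRG00000051682. Of these reads 24 came from 23 trophectoderm-like cells and 1 from an epiblast-like cell, and no kept cell exceeded 0.47 CPM. These values cannot be read as levels of the 2 genes without caution. Each symbol belongs to 2 identifiers, and STAR's gene counting in general uses only reads that map to 1 place, so reads shared by near-identical copies are lost. Of 710 symbols with more than 1 identifier, 13.7% had no read in any cell, against 2.94% of 17336 symbols with 1 identifier. CLDN9, CLDN12 and CLDN15 also have 2 identifiers each, and were at 0.47 CPM or less in each class. Whether copies in the genome assembly account for the values of CLDN3 and CLDN4 was not tested. In the RefSeq annotation of another assembly, NHGRI_mPanTro3-v2.0, CLDN3 and CLDN4 are neighbouring single genes.

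**Figure D1:**
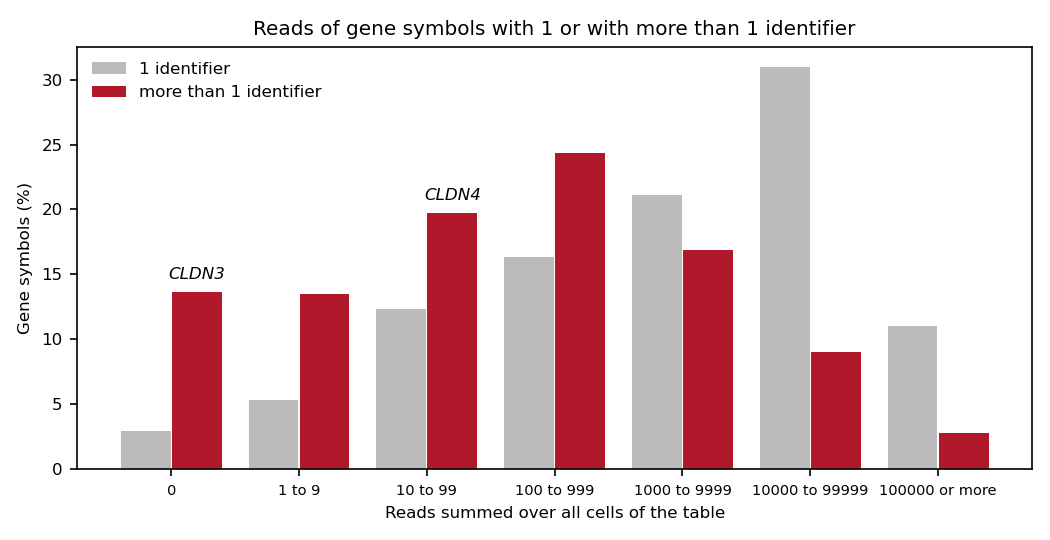
Bars show the percent of gene symbols (vertical axis) by reads summed over all cells of the table (horizontal axis), for 17336 symbols with 1 identifier (grey) and 710 with more than 1 (red). The bins that hold CLDN3 (0 reads) and CLDN4 (27 reads) are marked, and symbols with more than 1 identifier lie further to the left, 13.7% of them at 0 against 2.94%.

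CLDN6, a claudin known from embryonic epithelia and pluripotent cells, has 1 identifier and was also close to 0. It stood at 0.051 CPM in epiblast-like cells, 0.14 in hypoblast-like and 0.077 in trophectoderm-like cells. Reads were found in 8, 5 and 24 cells of these classes, and no kept cell exceeded 2.52 CPM. A single cell gave 77.8% of the 18 hypoblast-like reads. CLDN6 lies next to CLDN9 in the RefSeq annotation named above.

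CLDN7, a claudin of epithelia that is found with EPCAM, was the one claudin at 10 CPM or more in all 3 classes. It reached 10 CPM in every kept cell but 1 trophectoderm-like cell of the CCR7-low cluster. Epiblast-like cells had from 28.4 to 2131 CPM with a median of 478, and their summed reads gave 537 CPM (95% interval 534 to 540). Hypoblast-like cells had from 165.95 to 1271 CPM with a median of 412, and a pooled level of 516 CPM (512 to 520). Trophectoderm-like cells had from 8.60 to 538 CPM with a median of 228.8, and a pooled level of 236.6 CPM (235.3 to 237.9). The epiblast- and hypoblast-like classes were thus close and above the trophectoderm-like class, although the ranges of single cells overlapped. The pooled level of trophectoderm-like cells was 2.27-fold lower than that of epiblast-like cells, and 4.50% of them (5 cells) lay above the epiblast-like median. It was 2.18-fold lower than in hypoblast-like cells, and 8.11% of them (9 cells) lay above that median. Leaving out the mixed-marker cells removed 27 of the 32 hypoblast-like cells. The log2 difference from hypoblast-like cells then went from -1.13 to -0.74, which is under 2-fold. Among trophectoderm-like cells the CCR7-low and CCR7-high clusters had 249.2 and 223.2 CPM. CLDN7 overlaps the end of ELP5 in the RefSeq annotation named above, and reads that fall on both genes are not counted by STAR.

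CLDN10, whose products form ion-permeable pores, was read in few cells at more than a low level. It reached 10 CPM in 11 of 32 hypoblast-like cells (34.4%, 95% interval 18.6 to 53.2), 15 trophectoderm-like cells (13.5%, 7.77 to 21.3) and 4 of 50 epiblast-like cells (8%, 2.22 to 19.2). The median was 4.12 CPM in hypoblast-like cells and 0 in the other 2 classes. The pooled level was 36.2 CPM in hypoblast-like, 7.05 in trophectoderm-like and 5.77 in epiblast-like cells. That level rested on few cells. A single hypoblast-like cell at 968 CPM held 67.5% of the reads of its class, and without it the class stood at 12.1 CPM. The highest epiblast-like cell, at 211.9 CPM, held 46.98% and left 3.10 CPM, and the highest trophectoderm-like cell, at 314 CPM, held 37.5% and left 4.44 CPM. The order with hypoblast-like cells highest was the same with and without these cells. With them, the log2 difference of hypoblast-like over epiblast-like cells was 2.65 (6.27-fold). When the mixed-marker cells were left out, only 5 hypoblast-like cells remained. The log2 difference over epiblast-like cells then fell to 0.57, under 2-fold, and the log2 difference of trophectoderm-like over hypoblast-like cells went from -2.36 to 0.35. At 1 common depth of 2532312 reads, shares at 10 CPM or more were 32% in hypoblast-like, 15% in trophectoderm-like and 8.33% in epiblast-like cells. Between the trophectoderm-like clusters, CLDN10 was at 10.6 CPM in CCR7-low and 3.26 CPM in CCR7-high cells, with medians of 0 in both. A single CCR7-low cell held 48.4% of the reads of its cluster. Without the highest cell of each cluster, the log2 difference of CCR7-high over CCR7-low cells went from -1.70 to -1.05.

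**Figure D2:**
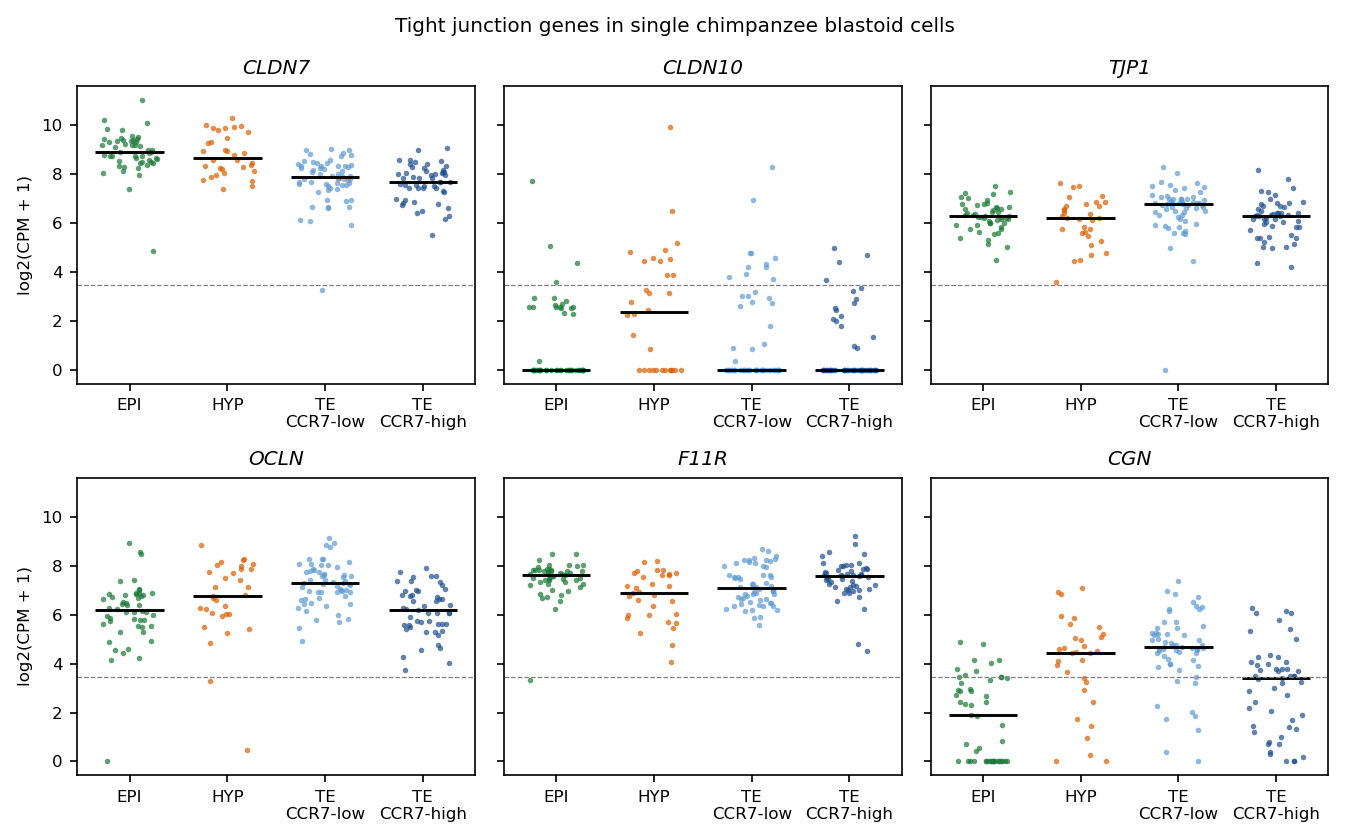
Each point is 1 cell, with log2(CPM + 1) on the vertical axis, for the 6 genes that reached 10 CPM in a class, in 50 epiblast-like (EPI), 32 hypoblast-like (HYP), 60 CCR7-low and 51 CCR7-high trophectoderm-like (TE) cells. Black lines are medians over cells and the dashed line is 10 CPM; CLDN7 is lower in both TE clusters than in EPI and HYP, CLDN10 is at 0 in most cells, and CGN is lowest in EPI.

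The claudins of a single cell were counted over the 23 claudin symbols that had an identifier. CLDN7 was the only claudin at 10 CPM or more in 42 of 50 epiblast-like cells (84%), 19 of 32 hypoblast-like cells (59.4%) and 54 trophectoderm-like cells (48.6%). In epiblast-like cells CLDN7 stood with CLDN10 in 4 cells, with CLDN11 in 3 and with CLDN1 in 1. In hypoblast-like cells CLDN7 and CLDN10 formed the most frequent pair, in 8 of 32 cells (25%, 11.5 to 43.4), and CLDN7 with CLDN1 was found in 1. In trophectoderm-like cells CLDN7 and CLDN1 formed the most frequent pair, in 38 cells (34.2%, 25.5 to 43.8), and CLDN7 with CLDN10 was found in 9 (8.11%). CLDN1, a sealing claudin of the epidermis and other epithelia, was thus the second claudin of the trophectoderm-like class. It stood at 37 CPM there, with 0.37 CPM in hypoblast-like and 0.75 in epiblast-like cells. It was split among trophectoderm-like cells: 46 cells had 10 CPM or more, while the median was 2.37 CPM. Both clusters held such cells, with 22 of 60 CCR7-low and 24 of 51 CCR7-high cells at 10 CPM or more. CLDN1 and CLDN10 stood at 10 CPM or more together in 5 trophectoderm-like cells, against 41 cells with CLDN1 without CLDN10 and 10 with CLDN10 without CLDN1. A single trophectoderm-like cell, of the CCR7-low cluster, had no claudin at 10 CPM. Calls per cell can miss a gene, since few molecules are captured.

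**Figure D3:**
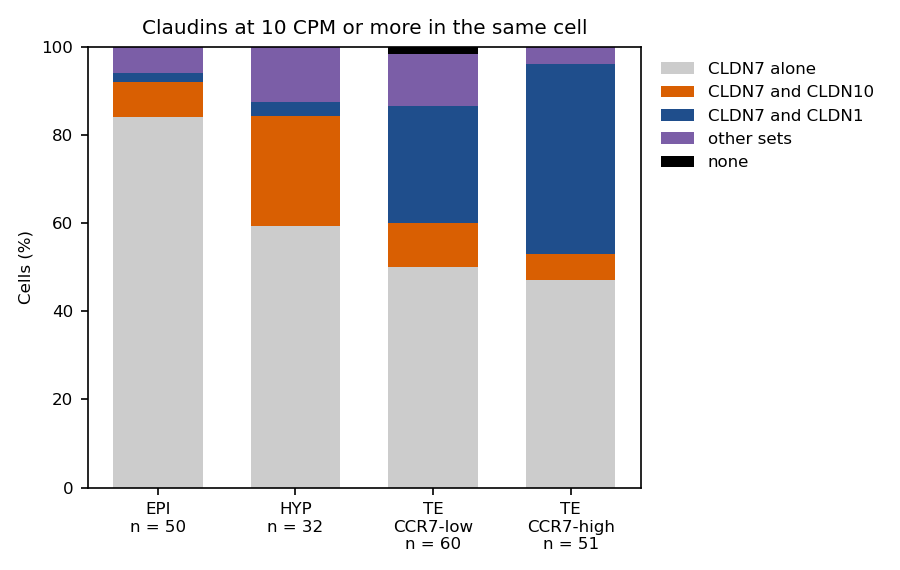
Stacked bars give the percent of cells in each group whose claudins at 10 CPM or more are CLDN7 alone, CLDN7 with CLDN10, CLDN7 with CLDN1, another set, or none. CLDN7 alone covers 84% of epiblast-like (EPI) and 59.4% of hypoblast-like (HYP) cells; CLDN7 with CLDN1 covers 26.7% of CCR7-low and 43.1% of CCR7-high trophectoderm-like (TE) cells.

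OCLN was read in nearly all cells, and its clearest difference lay within the trophectoderm-like class. It reached 10 CPM in every trophectoderm-like cell, in 30 of 32 hypoblast-like cells and in 49 of 50 epiblast-like cells. Epiblast-like cells ranged from 0 to 484 CPM with a median of 72.3, and hypoblast-like cells from 0.40 to 462 with a median of 109.03. CCR7-low trophectoderm-like cells ranged from 29 to 557 with a median of 154.3, and CCR7-high cells from 12.3 to 239.13 with a median of 71.5. Pooled levels were 89.6 CPM in epiblast-like, 141.7 in hypoblast-like, 162.08 in CCR7-low and 88.2 in CCR7-high cells. CCR7-high cells thus stood beside the epiblast-like cells, and 8 of 51 lay above the CCR7-low median. The difference between the 2 trophectoderm-like clusters was 1.84-fold (log2 -0.88). It ranged from -1.14 to -0.69 over 22 alternatives and was past 2-fold in 10 of them, among these 4 of 5 other clustering seeds, so OCLN lies near the 2-fold limit.

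TJP1, the scaffold to which claudins and occludin bind, was the most even of the 9 with F11R. Its medians were 76.8 CPM in epiblast-like cells (21.9 to 183.7), 72.4 in hypoblast-like cells (11.2 to 196.7), 110.07 in CCR7-low cells (0 to 315) and 78.5 in CCR7-high cells (17.7 to 288). Pooled levels of 81.9, 81.1, 109.1 and 78 CPM in the same order differed by at most 1.399-fold. F11R, an adhesion molecule that recruits polarity proteins, had pooled levels of 188.6, 134.95, 162.9 and 205.5 CPM in these groups. Its medians were 194.3 (8.93 to 358), 118.7 (16 to 289), 136.2 (47.4 to 409) and 188.7 CPM (21.7 to 593). The interquartile ranges of all 4 groups overlapped for F11R and for TJP1.

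CGN, which links the junction plaque to actin and myosin, was lower in epiblast-like cells than in the other groups. Epiblast-like cells had a median of 2.73 CPM (0 to 28.7) and 8 of 50 reached 10 CPM. Hypoblast-like cells had a median of 20.9 CPM (0 to 135.7) and 22 of 32 reached 10 CPM. CCR7-low cells had a median of 24.7 CPM (0 to 167.7) with 50 of 60 at 10 CPM or more, and CCR7-high cells 9.78 CPM (0 to 77.2) with 25 of 51. Pooled, CGN was 5.67-fold higher in hypoblast-like and 4.30-fold higher in trophectoderm-like than in epiblast-like cells, and 2.34-fold lower in CCR7-high than in CCR7-low cells. Clustering with 15 neighbours took the last log2 difference from -1.22 to -0.90, under 2-fold. A total of 91 trophectoderm-like cells (81.98%) and 26 of 32 hypoblast-like cells lay above the epiblast-like median. No single cell held more than 13.6% of the reads of its group. Thinned to 1 depth, 10 CPM was reached by 68% of hypoblast-like, 64% of trophectoderm-like and 18.8% of epiblast-like cells.

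CLDN7, TJP1, OCLN and F11R were found at 10 CPM or more together in 49 of 50 epiblast-like cells (98%, 89.4 to 99.9), 30 of 32 hypoblast-like cells (93.8%, 79.2 to 99.2), 58 of 60 CCR7-low cells and 51 of 51 CCR7-high cells. Of the 9 genes, the median cell had 4 at this level in the epiblast-like class and 5 in the other 2. CGN made most of that difference: it was at 10 CPM or more in 16% of epiblast-like cells, 68.8% of hypoblast-like cells and 67.6% of trophectoderm-like cells.

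A 2-fold difference of pooled CPM was used to count genes, among those with at least 1 CPM in either group. This held for 6 of the 9 genes in each comparison. Trophectoderm-like over epiblast-like cells, 1 of 6 was higher (CGN) and 1 of 6 lower (CLDN7), beside 11.6% and 23.6% of 12955 features. Trophectoderm-like over hypoblast-like cells, none was higher and 2 were lower (CLDN7 and CLDN10), beside 13.8% and 15.3% of 12428 features. Hypoblast-like over epiblast-like cells, 2 were higher (CLDN10 and CGN) and none lower, beside 7.39% and 19% of 12817 features. CCR7-high over CCR7-low trophectoderm-like cells, none was higher and 2 were lower (CLDN10 and CGN, with OCLN as the third in 10 of 22 alternatives), beside 10.3% and 8.72% of 12041 features. A single gene is 16.7% of the 6, so no count of them is read as a departure from these percents. The median log2 difference of the 6 genes was 0.24, -0.28, 0.32 and -0.68 in the same order, and that of all features -0.15, 0.02, -0.18 and 0.05. Scaling by the median of ratios moved the 2 medians against epiblast-like cells to -0.01 and 0.00. It also turned small negative differences positive, namely F11R of trophectoderm-like over epiblast-like cells (from -0.04 to 0.10) and CLDN7 and TJP1 of hypoblast-like over epiblast-like cells (from -0.06 to 0.12 and from -0.01 to 0.17).

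**Figure D4:**
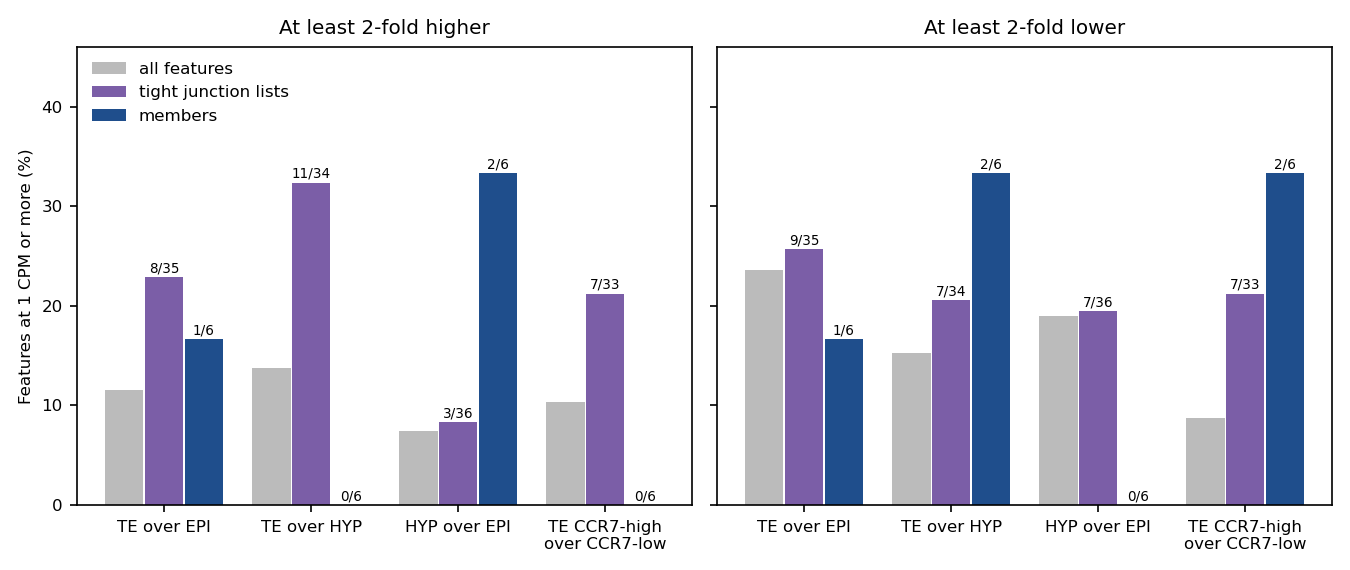
Bars give the percent of features at 1 CPM or more that were at least 2-fold higher (left) or lower (right) in pooled CPM, for all features, the 58 matched genes of the junction lists and the 9 genes, in 4 comparisons of epiblast-like (EPI), hypoblast-like (HYP) and trophectoderm-like (TE) cells. Numbers above bars are genes past 2-fold of genes at 1 CPM or more; at most 2 of 6 of the 9 genes pass in any panel.

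Other genes of the junction were taken from 7 lists of 59 symbols, of which 58 had an identifier (CLDN5 had none) and 29 reached 10 CPM in a class. Trophectoderm-like over epiblast-like cells, 8 of 35 list genes at 1 CPM or more were at least 2-fold higher and 9 lower. Over hypoblast-like cells, 11 of 34 were higher and 7 lower. Hypoblast-like over epiblast-like cells, 3 of 36 were higher and 7 lower, and CCR7-high over CCR7-low cells, 7 of 33 were higher and 7 lower. The percents of all features given above for the same directions are the background to these counts. The median log2 differences of the lists together were 0.00, -0.01, -0.13 and -0.25, against -0.15, 0.02, -0.18 and 0.05 for all features.

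Of the 18 other claudins with an identifier, CLDN1 was the one that reached 10 CPM in a class. CLDN17 and CLDN25 had no read in any cell. Among relatives of occludin, MARVELD2 (tricellulin, which seals the corners where 3 cells meet) followed a like course. It had 24.6 CPM in epiblast-like, 39.97 in hypoblast-like, 36.4 in CCR7-low and 15.6 in CCR7-high cells, the last 2.34-fold lower than CCR7-low. MARVELD3 was higher in epiblast-like cells (47.3 CPM) than in hypoblast-like (24.4) and trophectoderm-like cells (24.3). LSR, the receptor that brings tricellulin to cell corners, was between 109.6 and 109.9 CPM in the 3 classes. None of the 3 genes of this list at 1 CPM or more passed 2-fold between classes.

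Adhesion molecules of the junction differed more than F11R did. CXADR, the coxsackie and adenovirus receptor, stood at 358 CPM in epiblast-like, 257.3 in hypoblast-like, 132.2 in CCR7-low and 24.7 in CCR7-high cells. Its median per cell was 354, 203.1, 125.9 and 10.3 CPM in the same order, and 1 of 51 CCR7-high cells lay above the CCR7-low median. When the mixed-marker cells were left out, 27 of the 32 hypoblast-like cells among them, the log2 difference of trophectoderm-like over hypoblast-like cells changed. It went from -1.69 to 0.12. JAM3 ran the other way between the trophectoderm-like clusters, at 10.4 CPM in CCR7-low and 41.9 in CCR7-high cells, with 14.4 CPM in epiblast-like and 4.11 in hypoblast-like cells. The other 2 of the list, JAM2 and ESAM, were at 2.19 CPM or less in each class.

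Plaque and scaffold genes were split. MAGI3 (13.6, 17.3 and 13.9 CPM in epiblast-, hypoblast- and trophectoderm-like cells) and TJAP1 (19.2, 18.5 and 17.3) were even, and ARHGEF18, a guanine nucleotide exchange factor, was within 2-fold (18.9, 12.6 and 11.9). TJP3, a ZO protein, was highest in epiblast-like cells, at 62.6 CPM against 30.7 and 26.9. CGNL1 (paracingulin), the paralogue of CGN, had the reverse course of CGN: 14.4 CPM in epiblast-like cells, 1.21 in hypoblast-like and 1.47 in trophectoderm-like cells. It reached 10 CPM in 26, 1 and 4 cells of these classes. MAGI1 was at 8.17, 8.80 and 31.2 CPM in the 3 classes. PATJ, a scaffold of the Crumbs polarity complex, was at 47.2, 20.8 and 56.1 CPM, and 4.28-fold lower in CCR7-high than in CCR7-low cells. MPDZ, its paralogue, was at 20.9, 14.02 and 6.52 CPM. YBX3 (ZONAB), a nucleic acid binding protein held by TJP1, was at 187.96, 200.96 and 67.5 CPM.

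Partners and proteases of claudins were read in all classes. EPCAM, which binds CLDN7, had 972 CPM in epiblast-like, 1618 in hypoblast-like, 1196 in CCR7-low and 410 in CCR7-high cells, so the last was 2.92-fold below CCR7-low while CLDN7 differed by 1.12-fold. ST14 (matriptase), which cleaves EPCAM, was at 26.9, 23.2 and 32.5 CPM in the 3 classes. Its inhibitors SPINT1 (173.8, 175.01 and 193.2 CPM) and SPINT2 (1051, 1170 and 799 CPM) were within 2-fold in each class comparison.

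Of 8 epithelial transcription factors, 5 were at least 2-fold higher in trophectoderm-like than in epiblast-like cells and none lower, beside 11.6% and 23.6% of all features. Over hypoblast-like cells 6 were higher and 1 lower, beside 13.8% and 15.3%. TFAP2A, higher in both, is also in the marker list that named the class, and its log2 difference over epiblast-like cells went from 1.25 to -0.014 at clustering resolution 1.5. These grainyhead-like, OVO-like and AP-2 factors are known regulators of epithelial genes. GRHL1 was at 29.9 CPM in epiblast-like, 16.3 in hypoblast-like, 109.04 in CCR7-low and 316 in CCR7-high cells. GRHL2 was at 3.37, 6.04, 33.8 and 21.1 CPM. OVOL1 was at 20.8, 29.9, 25.1 and 259.4 CPM, and its CCR7-high level came from a part of the cells, since their median was 57.7 CPM. OVOL2 was lowest in CCR7-high cells, at 2.56 CPM against 14.5, 24.2 and 12.3. ELF3 was at 254.4, 214.5, 189.5 and 81.2 CPM. TFAP2C (187.8, 107.4, 269 and 447 CPM) and TFAP2A (12.4, 6.37, 17.9 and 41.6 CPM) were highest in CCR7-high cells. Among repressors of junction genes, SNAI1 reached 10 CPM, at 12.4 CPM in epiblast-like, 21.3 in hypoblast-like, 7.28 in CCR7-low and 18.8 in CCR7-high cells, and SNAI2, ZEB1, ZEB2 and TWIST1 did not.

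**Figure D5:**
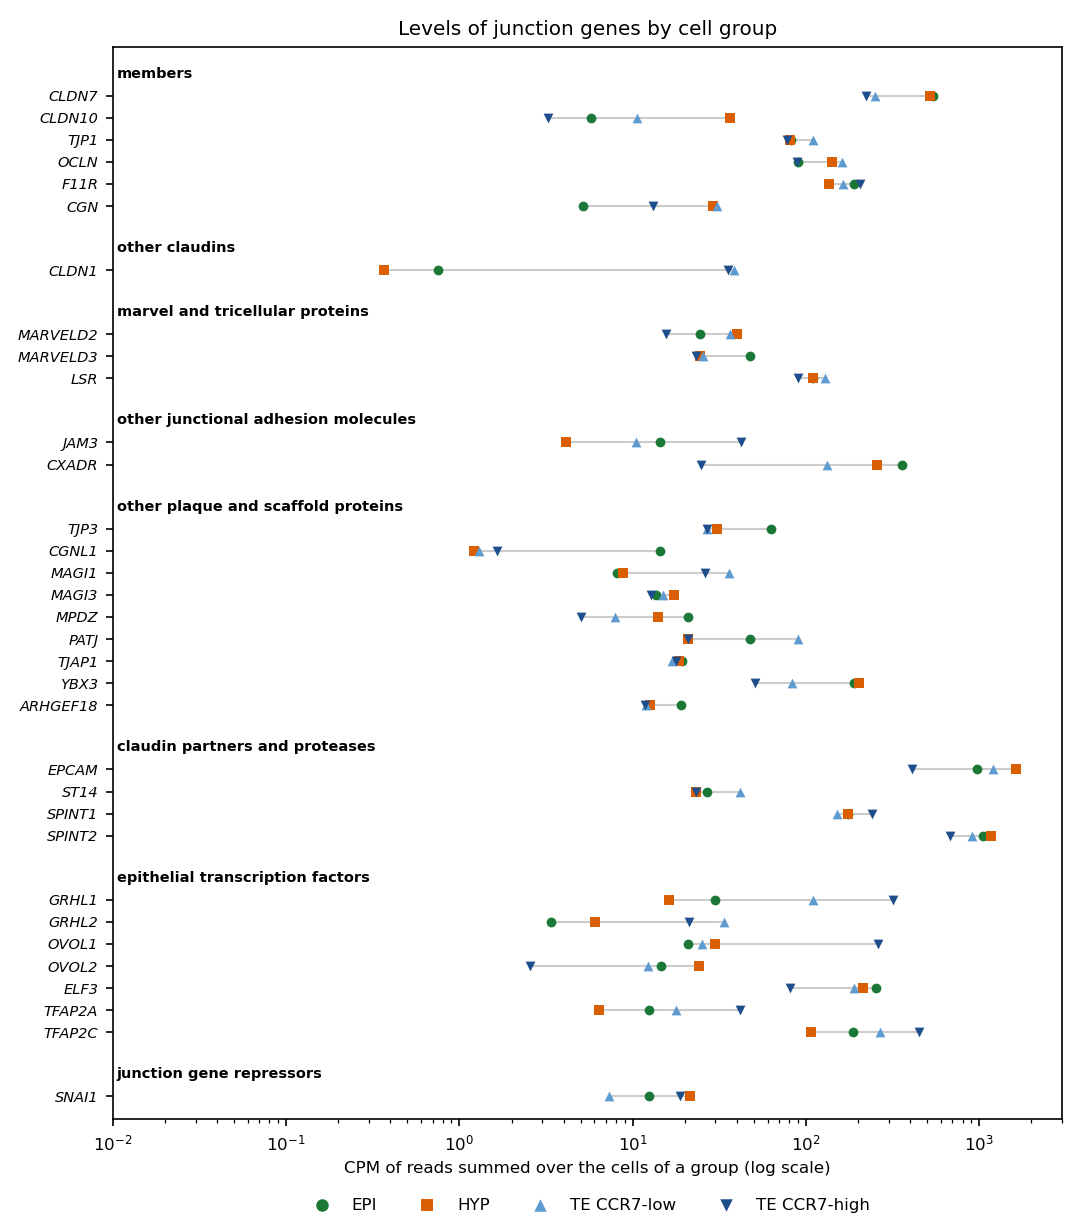
Each row is a gene named in the text with 10 CPM or more in a class, grouped by list ("members" are the genes described first), and symbols give CPM of reads summed over epiblast-like (EPI), hypoblast-like (HYP), CCR7-low and CCR7-high trophectoderm-like (TE) cells on a log axis. Levels are to be compared along a row and not between rows, since gene length was not divided out; CLDN1 lies to the right in both TE clusters, and CXADR, EPCAM and PATJ are lower in CCR7-high than in CCR7-low cells.

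Over single cells the 6 genes did not vary as 1 group. Spearman's rank correlation of log2(CPM + 1) over all kept cells ranged from -0.13 to 0.45 in the 15 pairs, with a median of 0.01. The closest pair was OCLN and CGN (0.45, and 0.50 over the trophectoderm-like cells). CLDN7 and F11R had a correlation of 0.36 over all cells, and 0.41 within trophectoderm-like, 0.52 within hypoblast-like and 0.12 within epiblast-like cells. TJP1 and OCLN had a correlation of 0.37 and, within trophectoderm-like cells, 0.41. Cells differ in depth and in the number of genes found. These values describe the cells of 1 sample.

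The genes most like each of the 6 over all kept cells were sought among 8387 genes that had a symbol, a read in at least 20 kept cells and 10 CPM in a class. CLDN7 was most like PRDX4 (correlation 0.74), CTSC (0.72) and RNASET2 (0.72), and within trophectoderm-like cells like TMEM14C (0.53), ERP29 (0.52) and GM2A (0.52). OCLN was like the desmosomal cadherin DSG2 (0.56) and GALNT6 (0.55). Within trophectoderm-like cells it was like GALNT6 (0.70) and the channel-activating protease PRSS8 (0.70). CGN was most like AHNAK (0.64), CD99 (0.63) and the laminin chain LAMA1 (0.61), and within trophectoderm-like cells like SPTBN1 (0.63), SLC4A11 (0.63) and LAMC1 (0.61). TJP1 was most like FGFR3 (0.48), SPTAN1 (0.47) and SLC4A11 (0.45), and within trophectoderm-like cells like FGFR3 (0.58), MAP4 (0.56) and KLF5 (0.56). F11R was most like SERINC3 (0.55), RTN3 (0.53) and M6PR (0.52), and within trophectoderm-like cells like SLC38A1 (0.65), UXS1 (0.63) and VMP1 (0.60). For CLDN10, SP5 (0.28), FAM83F (0.27) and PHOSPHO1 (0.27) came first over all cells, and ANK1 (0.44), SMIM29 (0.37) and NNT (0.35) within trophectoderm-like cells. Within the 32 hypoblast-like cells, where CLDN10 was highest, ZNF595 (0.67), NCKIPSD (0.66) and WBP1 (0.64) came first. Of these cells 20 had a CLDN10 read and 27 had mixed markers. The lowest correlations with CLDN10 were -0.59 (DCTN5) in these cells and -0.29 (TMEM184C) over all cells. All these values are extremes of 8387 correlations, and what unrelated genes would give was not tested.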

How the data were processed

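Single cells of dissociated blastoids were measured by SMART-seq2. The authors deposited raw counts of reads per Ensembl gene for each cell, not normalized. The methods of the study name FastP, STAR with its own gene counting, the genome Pan_tro_3.0 and Ensembl annotation, while the submitters' processing notes name Trim Galore 0.6.6, STAR 2.7.7a and GRCh38. The identifiers are chimpanzee ones. Symbols covered 18783 of 33729 identifiers, and reads of identifiers sharing a symbol were summed. The strand setting is not given in the sources used here.

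Cells with fewer than 4000 reads or 8000 detected genes were left out. Genes read in at least 20 cells were normalized, log-transformed and clustered with Scanpy 1.11.5 and leidenalg 0.10.2 (50 components, 30 neighbours, resolution 1, seed 0), and clusters were named by marker lists. Doublets were not called. Levels (CPM) are a gene's share of a group's summed reads, scaled to a fixed total, with exact Poisson 95% intervals, and shares have Clopper-Pearson 95% intervals. For a share of 0 the limit is 3 counts. For shares at a common depth, reads were drawn at random down to 2532312 a cell, and 20 shallower cells were left out. Scripts used Python 3.11.15, pandas 2.3.3 and scipy 1.17.1 and were tested on simulated data. The 9 genes and all lists were chosen with earlier results of these data known. List genes were named where they had 10 CPM in a class or no read in any class, and for each of the 6 genes at 10 CPM in a class the 3 most similar genes were named, except that some results under these rules are not reported here. Genes named below 10 CPM, and genes similar to CLDN10 within hypoblast-like cells, were chosen after their values were seen. Alternatives covered filters, clustering, scaling, thresholds, mixed cells and single high cells. No genome sequence was used.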

Additional observations from a re-analysis of the deposited data

Results flagged for a closer look

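The 24 cells left out for having too few detected genes also held reads of these genes. Of them, 70.8% had CLDN7 at 10 CPM or more (17 cells), 75% had TJP1 (18 cells), 66.7% had F11R (16 cells), 54.2% had OCLN (13 cells) and 33.3% had CGN (8 cells). These cells were used in no comparison, and a count of 0 in 24 cells would allow a share of up to 12.5%. These cells had 2330 to 7984 detected genes and a median mitochondrially encoded share of 16.3% of reads, against 2.19% in the kept cells, and their class was not assigned. CLDN10 was at 10 CPM or more in 2 of them, CLDN6 in 1, and CLDN3 and CLDN4 in none.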

How the results depend on the processing

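Of 222 values of main results under the alternatives tried, all of them numbers of cells or genes, 16 moved. Shares of all features past the same limit, in either direction, follow each count. A 3-fold limit left 1 of the 9 genes past it for trophectoderm-like over epiblast-like cells (23.1% of features), 1 over hypoblast-like cells (18%) and 1 for CCR7-high over CCR7-low cells (10.4%), where the lists had 7 genes (21.2% of those at 1 CPM). With 15 neighbours, 1 of the 9 genes, CLDN10, was past 2-fold between these clusters (about 18% of features). A 1.5-fold limit gave 21 list genes (58.3%) for hypoblast-like over epiblast-like cells (42.1% of features). Without a minimum CPM, the lists had 32 genes past 2-fold for trophectoderm-like over epiblast-like cells (57.1%, features 48.5%), 31 over hypoblast-like cells (56.4%, features 46.6%), 23 for hypoblast-like over epiblast-like cells (41.1%, features 40.7%) and 31 between the trophectoderm-like clusters (56.4%, features 38.9%). In the third of these, 4 of the 9 genes passed. A 10 CPM minimum left 4 list genes there (16%, features 16.8%). Without mixed-marker cells (5 hypoblast-like cells left), 0 of the 9 genes passed for trophectoderm-like over hypoblast-like cells (features 38.6%). For hypoblast-like over epiblast-like cells 1 of the 9 and 21 list genes (58.3%) then passed (features 42%). At 50 CPM the median cell had 4 of the 9 genes, not 5.

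Of 4385 other values (levels, log2 differences, medians and counts in each direction), 1253 moved (levels and log2 differences beyond the read counting error, counts by over 1.5-fold, medians by any amount), 3127 did not, and 5 log2 differences past 2-fold turned in direction; sign changes of smaller differences are not among these 5. Without mixed-marker cells, CLDN10 and CXADR of trophectoderm-like over hypoblast-like cells went to 0.35 and 0.12. With a lower limit on detected genes, ESAM of trophectoderm-like over epiblast-like cells went to 1.20. At resolution 1.5, TFAP2A of the same went to -0.014, and GRHL3 of hypoblast-like over epiblast-like cells to -1.50. The cause was not tested. No paired analysis was possible because all cells form 1 sample. Reads per cell and capture limit values near 0, and with 1 sample the spread between blastoids is unknown.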
